A study of Mus musculus with 6 samples.

Results

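The genes described are 7 of the SOCS family and the 3 PIM kinases. Cytokine receptors switch on several members of these families, which in turn restrain or carry the cytokine signal. They were chosen by name (Cish, Socs1, Socs2, Socs3, Socs4, Socs5, Socs7, Pim1, Pim2 and Pim3) and are 10 of the 55487 genes listed per library. Their mRNA was measured by bulk RNA-seq in C57BL/6 mouse CD8+ T cells, the cytotoxic lymphocytes. Cells of 3 libraries were exposed to itaconate, a metabolite of activated macrophages, at 5 mM for 48 h, and cells of the other 3 libraries to NaCl for the same time. The source of each replicate (mouse or culture) is not in the labels, so the p-values reflect variation between libraries that may be only technical.

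When a cytokine such as IL-2 binds its receptor, Janus kinases (JAKs) phosphorylate STAT transcription factors. These enter the nucleus and induce, among other genes, several of the SOCS and PIM families. SOCS proteins bind phosphorylated receptors or JAKs through an SH2 domain, and their SOCS box recruits a ubiquitin ligase, so they can end a signal. PIM proteins are serine/threonine kinases without a regulatory domain, so that their activity follows their abundance, and they favour survival, growth and translation. In CD8 T cells some members of both families are readouts of recent cytokine and antigen-receptor signalling.

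Library totals lay between 18280217 and 31643408 expected counts. Levels of single genes are given as CPM, the count relative to the TMM-adjusted library size. Levels of different genes are set side by side only as TPM, the authors' length-corrected unit. The 7 markers of CD8 T cells summed to 1901 to 1931 CPM in itaconate libraries and 1711 to 1824 CPM in control libraries, and 2 of the 7 passed the test, in opposite directions. Cd8a was higher (log2 fold change 0.38 ± 0.049, SE; edgeR adjusted p 0.000297) and Cd28 lower (-0.25 ± 0.061, edgeR adjusted p 0.0169), while Cd3e and Trac did not pass (0.00 ± 0.057 and 0.02 ± 0.044). Of 20 markers of 6 other cell types, 11 were abundant enough to test and 0 passed, and Siglech was at 0 in every library. B cell markers summed to 3.07 to 12.4 CPM in itaconate and 5.83 to 11.7 CPM in control libraries, and myeloid markers to 2.55 to 3.65 CPM in itaconate and 1.64 to 2.22 CPM in control libraries. CD4 T cell markers summed to 2.44 to 6.65 CPM in itaconate and 3.08 to 5.43 CPM in control libraries, and those of dendritic, NK and erythroid cells stayed at or below 4.0 CPM in every library. The myeloid sums were the only ones of other cells whose groups did not overlap. The part of other cells in the results was not tested, and in bulk RNA fewer cells of a type and less RNA per cell cannot be told apart.

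With itaconate Pim2 was lower, Socs1 and Socs5 were higher, and the other 7 genes did not pass the test. These were 2 of 10 genes higher and 1 of 10 lower, beside 6.68% of all 12350 tested genes called higher and 5.36% called lower (12.0% in all). With 10 genes these shares are too coarse to set the families apart from the rest. All 10 genes passed the filter on low counts. In size, the 10 genes had a median absolute log2 fold change of 0.11, all tested genes 0.13, and the called genes 0.33. Their median log2 fold change was -0.02, with 4 genes above and 6 below 0.

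**Figure D1:**
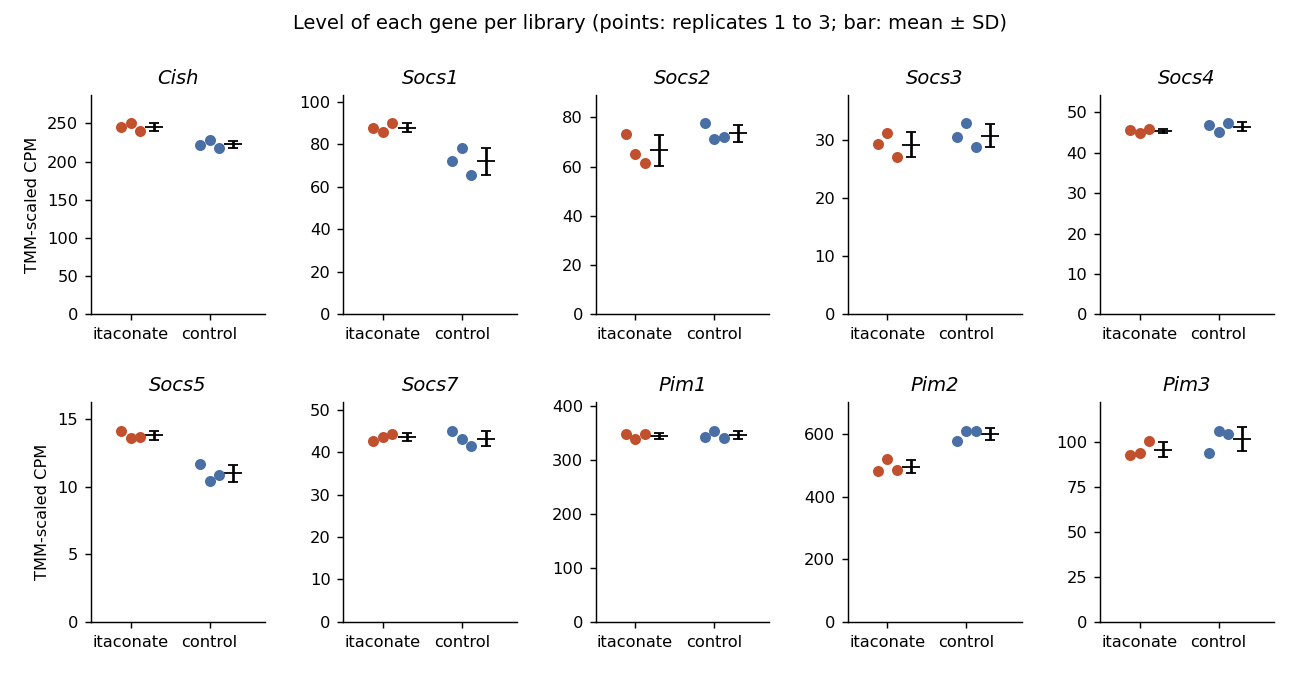
TMM-scaled CPM of each gene in the 3 itaconate libraries (left) and the 3 control libraries (right), with mean ± SD, on axes that start at 0. The groups do not overlap for Pim2, Socs1, Socs5 and Cish.

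Itaconate and control CPM were fully separate for 4 of the 10 genes (Cish, Socs1, Socs5 and Pim2), beside 31.2% of all tested genes. Sequence upstream of Socs1 and Pim2 is shown because these were the 2 genes with the smallest adjusted p. It comes from the RefSeq promoter windows of GRCm38, cut where the GENCODE gene begins and written 5′ to 3′ on the gene's strand. The Socs1 stretch is chr16:10785537-10785786 on the minus strand (250 bases) and the Pim2 stretch is chrX:7878056-7878261 on the plus strand (206 bases). Capitals mark matches to GAAANNGAAA, the letters of an interferon response element.
Socs1: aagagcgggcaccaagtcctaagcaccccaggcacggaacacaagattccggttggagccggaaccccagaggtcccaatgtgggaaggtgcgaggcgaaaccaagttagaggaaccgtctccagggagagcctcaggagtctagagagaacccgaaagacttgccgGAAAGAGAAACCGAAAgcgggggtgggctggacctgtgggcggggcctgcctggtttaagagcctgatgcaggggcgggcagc
Pim2: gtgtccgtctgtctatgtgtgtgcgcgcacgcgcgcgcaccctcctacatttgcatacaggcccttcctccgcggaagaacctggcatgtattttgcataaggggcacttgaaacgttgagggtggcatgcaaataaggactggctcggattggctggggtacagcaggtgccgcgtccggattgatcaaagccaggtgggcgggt
Promoter windows were held for 7 of the 10 genes (8 windows). The 250 bases before each RefSeq start were searched on both strands for TTCNNNGAA and TTCNNNNGAA, the letters of STAT sites, and for GAAANNGAAA. For Cish, Socs3 and 1 of the Pim1 windows all these bases lay inside the GENCODE gene. Sequence upstream of the GENCODE gene was therefore not searched for Cish or Socs3. Socs1 held 2 overlapping matches to GAAANNGAAA, starting 83 and 77 bases before the start, in a motif found in 2.98% of 32851 promoter windows. Socs3 held 1 match to TTCNNNGAA, 154 bases before its RefSeq start and inside the GENCODE gene, in a motif found in 7.02% of windows. TTCNNNNGAA, found in 5.85% of windows, was not in the windows of these genes, and the windows of Cish, Socs4, Pim1, Pim2 and Pim3 held none of the 3 motifs. Matches to different motifs overlapped in no window.

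Socs1 and Cish, the SOCS genes best known for restraining cytokine signals in T cells, were both above control in every itaconate library, but only Socs1 passed the test. Socs1 lies on chromosome 16 at 10782240 to 10785536 (GRCm38, protein-coding), and its product blocks the catalytic site of JAKs and limits interferon-gamma and IL-2 signals. Its level was 87.8, 86.01 and 89.9 CPM in itaconate replicates 1, 2 and 3, against 72.3, 78.3 and 65.3 CPM in control replicates 1, 2 and 3. The itaconate libraries lay closer together than the control libraries, and the lowest of them stood above the highest control. The log2 fold change was 0.29 ± 0.065 (SE, 1.22-fold; edgeR quasi-likelihood test, Benjamini-Hochberg adjusted p 0.0101). The call was lost without itaconate replicate 3 (log2 fold change 0.27, adjusted p 0.0526), with effective length modelled (0.29, adjusted p 0.0573) and with limma on log2(TPM + 1) (0.22, adjusted p 0.223).

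Cish, a STAT5 target that dampens IL-2 and antigen-receptor signals in CD8 T cells, lies on chromosome 9 at 107296026 to 107302784. It was at 244.9, 250.3 and 240.2 CPM in itaconate replicates 1, 2 and 3, against 222.4, 227.8 and 218.1 CPM in control replicates 1, 2 and 3. The groups did not overlap, yet the difference was a log2 fold change of 0.14 ± 0.044 (95% interval 0.04 to 0.23), with an edgeR adjusted p of 0.0552. It passed with upper quartile factors (adjusted p 0.0396) and with the replicate number as a block (0.0193), and in 2 of 16 alternative analyses in all. In TPM the groups overlapped, at 104.5 to 107.1 in itaconate and 95.5 to 104.9 in control libraries.

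Socs5, whose product has been tied to receptors of IL-4 and epidermal growth factor, was the least abundant of the 10 genes. It lies on chromosome 17 at 87107679 to 87137839. It had 14.2, 13.6 and 13.7 CPM in itaconate replicates 1, 2 and 3, against 11.7, 10.4 and 10.9 CPM in control replicates 1, 2 and 3. The groups did not overlap, and the log2 fold change of 0.33 ± 0.10 was the largest among the 10 genes. Its edgeR adjusted p of 0.0477 was just inside the threshold. Leaving out any single library ended the call: adjusted p was 0.11, 0.0974 and 0.111 without itaconate replicates 1, 2 and 3, and 0.0552, 0.168 and 0.11 without control replicates 1, 2 and 3. DESeq2 gave 0.135. RSEM's effective length of Socs5, which averages its 3 annotated transcripts, varied from 2910 to 3313 bases in itaconate and 3050 to 3631 bases in control libraries. With effective length modelled, the log2 fold change was larger, at 0.43, but the call was lost (edgeR adjusted p 0.085).

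The other SOCS genes did not pass. Socs2, which ends growth hormone signalling and is also induced by STAT5, was at 73.3, 65.1 and 61.3 CPM in itaconate replicates 1, 2 and 3, against 77.6, 71.0 and 71.9 CPM in control replicates 1, 2 and 3. Itaconate replicate 1 lay inside the control range and the other itaconate libraries below it. The log2 fold change was -0.14 ± 0.069 (95% interval -0.29 to 0.00, edgeR adjusted p 0.2), opposite in sign to that of Cish, and it passed in 0 of 16 alternative analyses (lowest adjusted p 0.0539, without itaconate replicate 1). Socs3, which restrains receptors that use gp130 such as that of IL-6, was at 29.4, 31.3 and 27.1 CPM in itaconate replicates 1, 2 and 3, against 30.6, 32.96 and 28.9 CPM in control replicates 1, 2 and 3. The groups overlapped, and the log2 fold change was -0.07 ± 0.079 (95% interval -0.24 to 0.10, edgeR adjusted p 0.614).

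Socs4 and Socs7 had long transcripts and low, even levels. Socs4 averaged 45.5 ± 0.504 CPM in itaconate and 46.5 ± 1.16 CPM in control libraries (SD, n = 3 each), a log2 fold change of -0.03 (95% interval -0.16 to 0.09). Socs7, whose product has been tied to insulin signalling, averaged 43.6 ± 0.850 CPM in itaconate and 43.2 ± 1.79 CPM in control libraries (SD, n = 3 each), a log2 fold change of 0.01 (95% interval -0.12 to 0.15). The intervals leave room for changes of a size like that fitted for Cish.

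**Figure D2:**
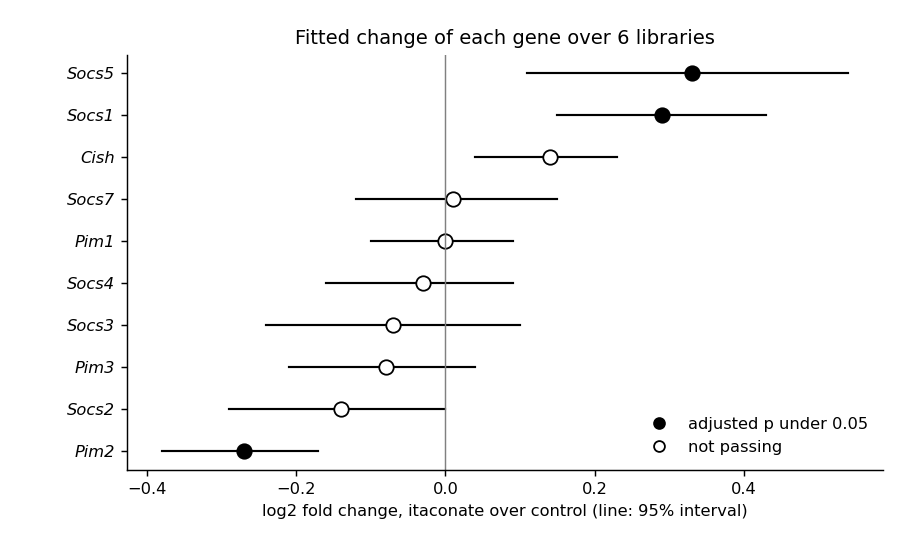
Fitted log2 fold change of each gene, itaconate over control, with its 95% interval, and filled points at an edgeR adjusted p under 0.05. Pim2 at -0.27 and Socs1 and Socs5 at 0.29 and 0.33 are filled, and the interval of Cish (0.04 to 0.23) also lies above 0 although its adjusted p is 0.0552.

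Among the PIM kinases only Pim2 was called, and it was the most abundant of the 10 genes. Pim2, which sustains translation and survival in lymphocytes, lies on chromosome X at 7878262 to 7883432. Its level was 482.1, 520.8 and 485.3 CPM in itaconate replicates 1, 2 and 3, against 578.1, 610.7 and 610.3 CPM in control replicates 1, 2 and 3. Every itaconate library lay below every control library, and the gap between the groups was wider than the spread within either. The log2 fold change was -0.27 ± 0.048 (SE, 95% interval -0.38 to -0.17; edgeR adjusted p 0.00225). Pim2 was the only 1 of the 10 genes called in all 16 alternative analyses (adjusted p from 2.15e-06 to 0.0433), with log2 fold changes from -0.34 to -0.25. Without 1 library its adjusted p ran from 0.0017 to 0.0213.

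Pim1, the member most often used as a readout of STAT activation, did not pass. It lies on chromosome 17 at 29490753 to 29496112 and was at 348.0, 338.1 and 347.4 CPM in itaconate replicates 1, 2 and 3, against 342.1, 353.6 and 340.3 CPM in control replicates 1, 2 and 3. The groups overlapped and their means lay within 1 SD of each other, at 344.5 ± 5.54 CPM in itaconate and 345.3 ± 7.26 CPM in control libraries (SD, n = 3 each). The 95% interval of its log2 fold change ran from -0.10 to 0.09 (edgeR adjusted p 0.976). Exons of Pim1 overlap those of an antisense gene with a mean expected count of 78.9 per library. Exons of Cish likewise overlap those of Gm17040 and Gm17041 on the other strand, with mean expected counts of 9.5 and 0.0. The strand setting of the counting is not given in the sources used here. Pim3 was at 93.0, 94.2 and 100.9 CPM in itaconate replicates 1, 2 and 3, against 94.2, 106.4 and 104.9 CPM in control replicates 1, 2 and 3. It did not pass either (log2 fold change -0.08 ± 0.059, 95% interval -0.21 to 0.04, edgeR adjusted p 0.407), and control replicate 1 lay among the itaconate libraries.

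Per transcript the order of the 10 genes was the same in both groups: Pim2, Pim1, Cish, Pim3, Socs2, Socs1, Socs3, Socs4, Socs7 and Socs5. Pim2 averaged 330.9 ± 8.79 TPM in itaconate and 419.7 ± 10.3 TPM in control libraries (SD, n = 3 each), and Socs5 5.28 ± 0.645 TPM in itaconate and 4.07 ± 0.245 TPM in control libraries. Neighbours in this order overlapped between libraries only for Socs4 and Socs7 in both groups, and for Socs2 and Socs1 in the itaconate group. Socs2 averaged 43.9 ± 4.68 TPM in itaconate libraries, where Socs1 averaged 40.9 ± 1.64 TPM. In control libraries Socs2 averaged 52.8 ± 6.22 TPM and Socs1 35.1 ± 4.04 TPM, with no overlap. In TPM both groups were fully separate for 4 of the 10 genes (Socs1, Socs4, Socs5 and Pim2), beside 26.4% of all tested genes.

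**Figure D3:**
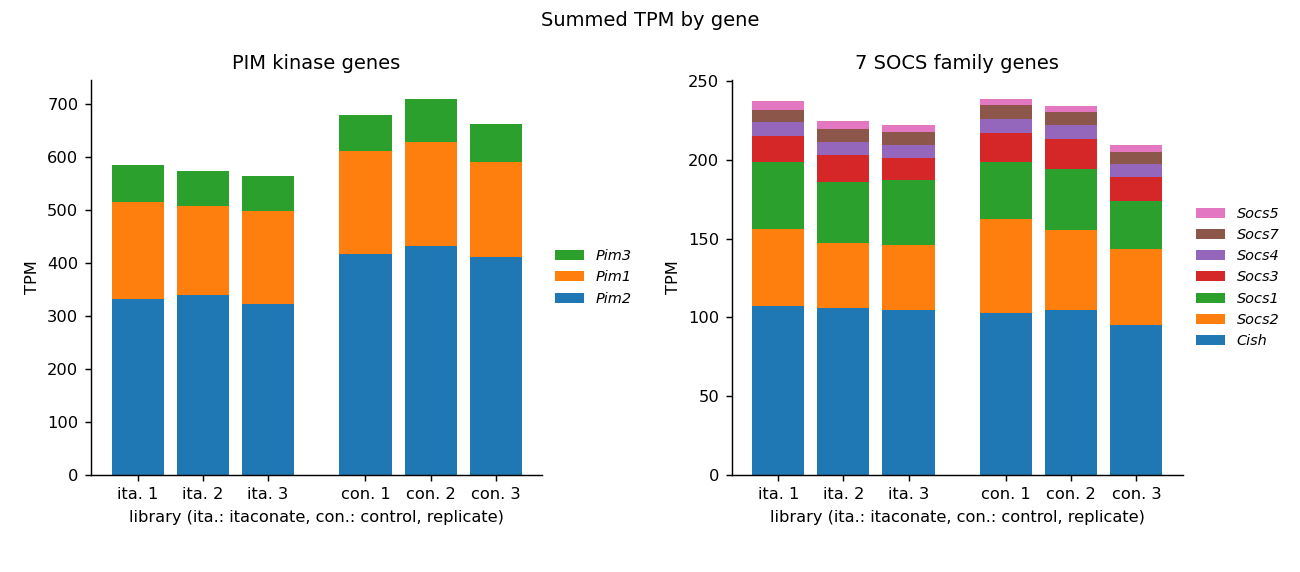
TPM of the 3 PIM genes (left panel) and the 7 SOCS genes (right panel), stacked by gene, for itaconate replicates 1 to 3 and then control replicates 1 to 3. The PIM stacks are lower in the itaconate libraries (564.6 to 585.3 TPM) than in the control libraries (662.2 to 709.5 TPM), and the SOCS stacks overlap. The sums were not tested, and Pim2 was the only PIM gene called.

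Summed over the 3 PIM genes, TPM was 585.3, 572.5 and 564.6 in itaconate replicates 1, 2 and 3, against 679.1, 709.5 and 662.2 in control replicates 1, 2 and 3. This sum was not tested. Of its genes only Pim2 was fully separate in TPM, while Pim1 and Pim3 overlapped between the groups. Pim2 made up 57.6% ± 1.38 of that sum in itaconate and 61.4% ± 0.703 in control libraries (SD, n = 3 each), and Pim1 30.6% ± 1.19 in itaconate and 27.8% ± 0.874 in control libraries. The 7 SOCS genes summed to 228.3 ± 8.13 TPM in itaconate and 227.7 ± 15.8 TPM in control libraries (SD, n = 3 each) and overlapped between the groups. The shares of single genes in this sum were not tested, and 4 of the 7 (Cish, Socs3, Socs4 and Socs7) overlapped. Socs1 held 17.9% ± 0.643 of the SOCS sum in itaconate and 15.4% ± 0.962 in control libraries, and Socs2 19.2% ± 1.35 in itaconate and 23.1% ± 1.71 in control libraries, with no overlap for either gene. Socs5 held 2.31% ± 0.202 in itaconate and 1.80% ± 0.227 in control libraries, also with no overlap. Cish held 46.4% ± 1.16 in itaconate and 44.5% ± 1.24 in control libraries, with overlap.

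Ratios between paralogues within a library asked whether related genes changed unequally. In 5 ratios compared, 3 against 3 libraries cannot give an exact permutation p below 0.1, so none could pass. The log2 TPM ratio of Cish to Socs2 was 1.12, 1.37 and 1.34 in itaconate replicates 1, 2 and 3, against 0.79, 1.05 and 1.0 in control replicates 1, 2 and 3 (difference 0.33, two-sided exact permutation p 0.1, adjusted over the 5 ratios 0.125). That of Socs1 to Socs3 was 1.33, 1.17 and 1.54 in itaconate replicates 1, 2 and 3, against 0.97, 1.01 and 1.03 in control replicates 1, 2 and 3 (difference 0.34, exact permutation p 0.1, adjusted 0.125). In each of these ratios the groups did not overlap, with Cish at 2.42 times Socs2 in itaconate and 1.92 times in control libraries.

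The log2 ratio of Pim1 to Pim2 averaged -0.91 ± 0.091 in itaconate and -1.14 ± 0.057 in control libraries (difference 0.23), and that of Pim2 to Pim3 averaged 2.30 ± 0.060 in itaconate and 2.51 ± 0.097 in control libraries (difference -0.22; SD, n = 3 each; exact permutation p 0.1 for each, adjusted 0.125). The groups did not overlap in either, but both ratios contain Pim2, itself called lower, so they are not independent results. Pim1 to Pim3 averaged 1.38 ± 0.038 in itaconate and 1.37 ± 0.126 in control libraries (difference 0.01; exact permutation p 0.9, n = 3 each), with overlap.

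Lists of genes around these families are set beside all tested genes, of which 6.68% were called higher and 5.36% lower. No list was tested against these shares. Of the 11 JAK and STAT genes that feed these families, 2 were lower, 0 were higher and 9 did not pass in edgeR's test. Their median log2 fold change was 0.01, against 0.006 over all tested genes. At an unadjusted p under 0.05, 2 were higher and 3 lower, and DESeq2 and limma on log2(TPM + 1) each called 0 higher and 2 lower. Jak2, a kinase of the interferon-gamma and IL-12 receptors, was at 65.3, 63.6 and 66.1 CPM in itaconate replicates 1, 2 and 3, against 97.6, 94.96 and 85.9 CPM in control replicates 1, 2 and 3 (log2 fold change -0.51 ± 0.060, edgeR adjusted p 0.000115). Stat4, which carries the IL-12 signal, was at 93.6, 94.2 and 99.9 CPM in itaconate replicates 1, 2 and 3, against 114.5, 125.3 and 125.3 CPM in control replicates 1, 2 and 3 (-0.34 ± 0.055, edgeR adjusted p 0.00115). Both lay below control in every itaconate library. Stat5a and Stat5b, the factors that induce Cish, did not pass (log2 fold changes 0.05 ± 0.049 and 0.08 ± 0.047).

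Of 18 receptor chains for cytokines inducing SOCS and PIM genes, 6 were higher and 2 lower, beside 6.68% and 5.36% of all tested genes. The other 10 did not pass, and the median log2 fold change of the 18 was 0.10. DESeq2 also called 6 higher and 2 lower, but limma on log2(TPM + 1) called 1 higher and 1 lower, and 0 of either without its filter. Without itaconate replicate 3, or without control replicate 2, edgeR called 3 higher. Those higher were Ifngr1, Ifngr2, Il10rb, Il27ra, Ifnar2 and Il2rb. Ifngr1, the ligand-binding chain for interferon-gamma, averaged 101.1 ± 5.46 CPM in itaconate and 78.3 ± 3.12 CPM in control libraries (SD, n = 3 each; log2 fold change 0.37 ± 0.057, edgeR adjusted p 0.000999). Its partner Ifngr2 averaged 10.8 ± 0.901 CPM in itaconate and 7.10 ± 0.302 CPM in control libraries (0.61 ± 0.119, edgeR adjusted p 0.00449), but with effective length modelled the value was 0.10 (adjusted p 0.799) and with limma on log2(TPM + 1) 0.03 (0.942). Il12rb2, the signalling chain of the IL-12 receptor, averaged 126.9 ± 6.40 CPM in itaconate and 163.5 ± 6.11 CPM in control libraries (-0.37 ± 0.052, edgeR adjusted p 0.000555). Il4ra was lower too (-0.24 ± 0.067, edgeR adjusted p 0.0399), a call lost without itaconate replicates 1 (0.0893) or 2 (0.142) or control replicates 1 (0.0872) or 2 (0.0662), with upper quartile factors (0.0543), with effective length modelled (0.211) and with limma on log2(TPM + 1) (0.224). Il2ra, the high-affinity chain for IL-2, averaged 961.4 ± 46.0 CPM in itaconate and 961.1 ± 28.1 CPM in control libraries, with a 95% interval of -0.10 to 0.10 for its log2 fold change.

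Of 12 cytokine genes, 7 were abundant enough to test, of which 1 was higher, 2 were lower and 4 did not pass (median log2 fold change -0.18). DESeq2 called 0 higher and 2 lower, and limma on log2(TPM + 1) 0 higher and 1 lower. Il2, the growth factor of T cells, was at 1.58, 1.11 and 1.89 CPM in itaconate replicates 1, 2 and 3, against 3.12, 3.87 and 4.22 CPM in control replicates 1, 2 and 3 (log2 fold change -1.27 ± 0.248, edgeR adjusted p 0.00444). Lif, which signals through gp130, was lower (-0.18 ± 0.049, edgeR adjusted p 0.0276) and Osm, a STAT5-induced relative of Lif, was higher (0.24 ± 0.065, edgeR adjusted p 0.0256). Lif lost its call without itaconate replicates 1 (0.0754) or 2 (0.107) or control replicate 2 (0.122), and Osm without itaconate replicates 1 (0.0774) or 3 (0.0894) or control replicates 2 (0.0864) or 3 (0.0922). Both calls were also lost with effective length modelled (0.149 for Lif, 0.13 for Osm) and with limma on log2(TPM + 1) (0.159 for Lif, 0.354 for Osm), and that of Osm with DESeq2 (0.0578).

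Other genes that IL-2 and STAT5 are known to induce moved both ways. Of 20 tested, 6 were higher and 3 lower, beside 6.68% and 5.36% of all tested genes, and 11 did not pass. The median log2 fold change of the 20 was 0.02. DESeq2 called 5 higher and 5 lower, and limma on log2(TPM + 1) 1 higher and 0 lower. Effective length offsets left 3 higher and 1 lower. Without control replicate 2 edgeR called 3 higher and 1 lower, and without itaconate replicate 3 it called 3 higher and 4 lower. Xbp1, a transcription factor of secretory cells, averaged 221.8 ± 9.87 CPM in itaconate and 155.9 ± 4.68 CPM in control libraries (SD, n = 3 each; 0.51 ± 0.049, edgeR adjusted p 2.28e-05). The G1 cyclin Ccnd3 was higher, at 433.4 ± 11.7 CPM in itaconate and 355.2 ± 8.40 CPM in control libraries (0.29 ± 0.045, edgeR adjusted p 0.000975). Its paralogue Ccnd2 was lower, at 578.5 ± 23.4 CPM in itaconate and 671.7 ± 18.9 CPM in control libraries (-0.22 ± 0.047, edgeR adjusted p 0.009), a call lost without control replicate 2 (0.0541) and with effective length modelled (0.0531). With limma on log2(TPM + 1) the value of Ccnd2 was -0.37 (adjusted p 0.0976), and the calls of Ccnd3 (0.21, adjusted p 0.0626) and Prdm1 (-0.59, adjusted p 0.0722) were lost too. Prdm1, the repressor BLIMP-1, averaged 8.10 ± 1.37 CPM in itaconate and 13.5 ± 2.12 CPM in control libraries (-0.74 ± 0.145, edgeR adjusted p 0.00511). Il4ra and Osm stand in this list as well as in those above.

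Of 15 other regulators of JAKs and STATs, mostly restraints, 2 were higher and 2 lower, beside 6.68% and 5.36% of all tested genes. The other 11 did not pass, and the median log2 fold change of the 15 was 0.01. DESeq2 also called 2 higher and 2 lower, but effective length offsets left 0 higher and 1 lower, and limma on log2(TPM + 1) called 0 of either. The phosphatase gene Ptprc (CD45) was lower, at 744.9 ± 26.7 CPM in itaconate and 916.4 ± 75.1 CPM in control libraries (SD, n = 3 each; -0.30 ± 0.057, edgeR adjusted p 0.00406), with an adjusted p of 0.0677 in limma on log2(TPM + 1). Ptpn6, the phosphatase SHP-1 (0.20 ± 0.049, edgeR adjusted p 0.017), and Dok1, an adaptor that restrains kinases (0.31 ± 0.079, edgeR adjusted p 0.0207), were higher, and Cblb, a ubiquitin ligase (-0.16 ± 0.046, edgeR adjusted p 0.041), was lower. Ptpn6 lost its call without itaconate replicate 2 (0.0876) or control replicates 2 (0.0561) or 3 (0.0502), and Dok1 without itaconate replicate 3 (0.0827) or control replicates 1 (0.0741) or 2 (0.0571). Cblb lost its call without itaconate replicates 1 (0.0954), 2 (0.0841) or 3 (0.142) or control replicate 2 (0.17), and with upper quartile factors (0.0548). With effective length modelled the adjusted p was 0.0646 for Ptpn6, 0.0592 for Dok1 and 0.147 for Cblb, and in limma on log2(TPM + 1) 0.228, 0.135 and 0.149.

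The ubiquitin ligase parts that the SOCS box recruits, among them Elob, Eloc, Cul5 and Rnf7, gave 0 calls among 10 tested genes in edgeR's test, in DESeq2 and in limma on log2(TPM + 1), and a median log2 fold change of -0.01. At an unadjusted p under 0.05, 1 was higher and 1 lower. Of 17 genes for PIM substrates and the AKT and mTOR branch that runs beside them, 1 was higher, 2 were lower and 14 did not pass (median log2 fold change 0.03). DESeq2 also called 1 higher and 2 lower, and limma on log2(TPM + 1) 0 higher and 1 lower. Cxcr4, a chemokine receptor whose surface display PIM kinases promote, was at 2.33, 4.05 and 3.13 CPM in itaconate replicates 1, 2 and 3, against 7.20, 6.14 and 7.21 CPM in control replicates 1, 2 and 3 (-1.12 ± 0.192, edgeR adjusted p 0.00188). Foxo3, a transcription factor held back by AKT, was lower (-0.27 ± 0.060, edgeR adjusted p 0.0101), a call lost without itaconate replicate 3 (0.0515), with effective length modelled (-0.19, adjusted p 0.214) and in all 3 limma fits on TPM (0.221 to 0.376). Rps6, a ribosomal protein, was higher (0.26 ± 0.066, edgeR adjusted p 0.0266), a call lost without itaconate replicates 1 (0.0512), 2 (0.109) or 3 (0.0557) or control replicates 1 (0.0535) or 2 (0.0758), with effective length modelled (0.0563) and with limma on log2(TPM + 1) (0.102).

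**Figure D4:**
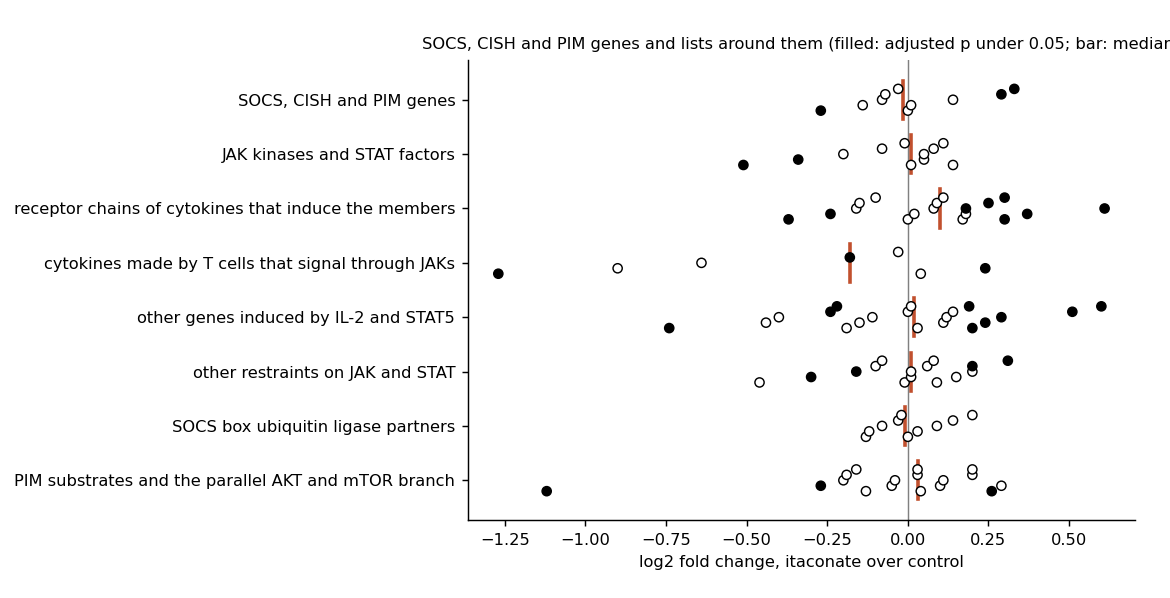
Log2 fold change, itaconate over control, of the 10 SOCS, CISH and PIM genes (top) and of the tested genes of 7 lists around them, with filled points at an edgeR adjusted p under 0.05 and a bar at each median. The medians lie between -0.18 (cytokines) and 0.10 (receptor chains).

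The genes whose pattern over the 6 libraries was nearest to that of Socs5 were Tbc1d9b, Adamts10 and Slc25a10. The root mean square distance of their centred log2 CPM to that of Socs5 was 0.0222, 0.0273 and 0.0323. The 8061 genes compared averaged 10 CPM or more, without the 10 genes described and without predicted genes (Gm or Rik names). The 3 are close by selection from so many genes, and Socs5 had only 216 to 342 expected counts per library. Shared regulation was not tested. In the 16 alternative analyses Tbc1d9b was called in 11, Adamts10 in 12 and Slc25a10 in 6. Tbc1d9b, the nearest, had 44.6, 43.8 and 43.1 CPM in itaconate replicates 1, 2 and 3, against 37.5, 32.4 and 33.6 CPM in control replicates 1, 2 and 3.

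**Figure D5:**
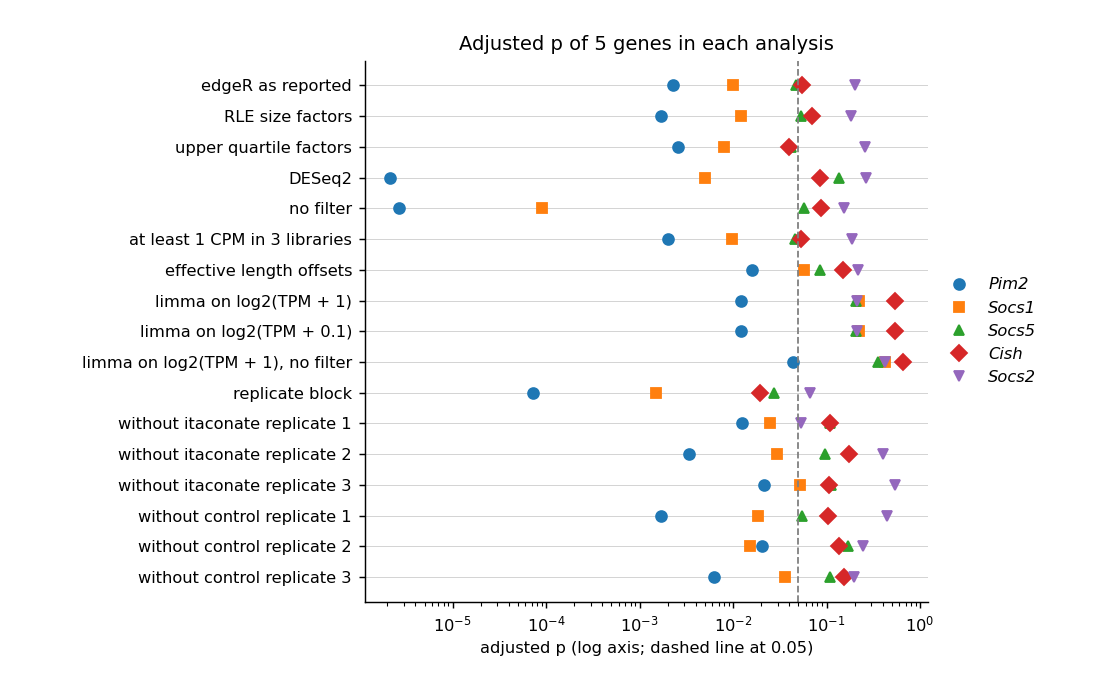
Adjusted p (log axis) of Pim2, Socs1, Socs5, Cish and Socs2 in the edgeR test as reported and in each of 16 alternative analyses, with a dashed line at 0.05. Pim2 lies left of the line in all of them, Socs1 in 11 of the 16 alternatives, Socs5 in 3 and Cish in 2.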

How the data were processed

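RNA-seq of CD8+ T cells gave 1 gene table per library, 3 libraries with itaconate and 3 with NaCl. The deposited expected counts are RSEM estimates of fragments assigned to each gene, raw in scale, as the authors' column names show. The deposited TPM correct those for effective length and library total. Effective length, an other value in bases per the file headers, is the authors' gene length corrected for fragment size. Bowtie 0.12.2 and the builds mm8 and mm10 stand in the submitters' processing notes without roles. The RSEM version, annotation release and strand setting were not given in the sources used here. Positions came from GENCODE M21 (GRCm38), matched by gene identifier.

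Expected counts were rounded (5.99% to 6.93% of genes per library were further than 0.001 from whole) and tested with edgeR 4.0.16 (R 4.3.3; TMM factors from 0.9866 to 1.017, minimum count 10, minimum total 15, quasi-likelihood test, two-sided). P-values were adjusted over all 12350 genes, with a threshold of 0.05. Log2 fold changes carry standard errors. Alternatives used DESeq2 1.42.0, limma 3.58.1 on log2(TPM + 1) or log2(TPM + 0.1) with a mean TPM of at least 1, other scalings and filters, and libraries left out. The fits were tested on simulated data. Within groups, pairs of libraries differed by a chi-square of 4.843 to 16.85 per gene, so no library looked like a copy of another. The members and lists were chosen with earlier results of these data known. Named are the 10 genes, up to 2 higher and 2 lower genes per list by adjusted p, and the 3 genes most like the called member with the largest change. Cd8a, Cd28, Cd3e, Trac, Siglech, Il2ra, Stat5a, Stat5b, Elob, Eloc, Cul5, Rnf7, Il10rb, Il27ra, Ifnar2 and Il2rb were named after their values were seen.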

Additional observations from a re-analysis of the deposited data

How the results depend on the processing

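Pim2 was called lower in all 16 alternatives, and the count of 1 lower gene among the 10 stayed at 1. The count of 2 higher genes was 1 with RLE size factors, DESeq2 or no filter, and 0 with effective length offsets and in each limma fit on TPM. It ran from 0 to 1 with 1 library left out. All log2 fold changes of the 3 called genes kept their sign. Of 160 values for the 10 genes, 140 kept their side of the threshold, 18 lost it and 2 (both of Cish) gained it. The count of all changed genes, 1487, was 567 with effective length offsets, 305 with limma on log2(TPM + 1), 304 on log2(TPM + 0.1), 59 on log2(TPM + 1) without a filter and 726 to 1400 with 1 library left out (lowest without control replicate 2, then 835 without itaconate replicate 3 and 896 without itaconate replicate 2). Median log2 fold change over all genes was 0.006 in edgeR and -0.053 in limma on log2(TPM + 1). The causes of these shifts were not tested.

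With the replicate number as a block the count of all changed genes was 2419, and the higher and lower genes among the 10 numbered 3 and 1. Deviations of same-numbered libraries correlated at 0.113, 0.0305 and 0.00337, and those of differently numbered libraries at -0.093 to 0.0664. With 3 libraries per group these values cannot show whether the numbers pair the samples, and the labels do not say. The paralogue ratios kept their direction in every alternative, other than Pim1 to Pim3, whose difference of 0.01 was 0.00 without itaconate replicate 3, -0.03 without control replicate 2 and -0.01 without control replicate 3. Of 368 values for the other named genes, 262 kept their side of the threshold and 106 lost it. Of 224 list counts, 83 moved by more than 1.5 times or changed to or from 0, which can be a change of 1 gene.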
